A study of Mus musculus with 70 samples.

Results

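The hippocampus of 32 non-transgenic (NTG) mice was compared between 16 animals held on time-restricted feeding (TRF) and 16 fed ad libitum (ALF), out of 69 animals in the series. Members were chosen by genotype and feeding alone, as the labels give them, and animals of all 4 times of sacrifice were used. The NTG mice are littermates of APP23 mice, and the deposited column names call them WT. The APP23 transgenics (TG, 18 on TRF and 19 on ALF) come from the line B6.Cg-Tg(Thy1-APP)3Somm/J, in which the Thy1 promoter drives APP, and the littermates do not carry the transgene.

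All animals lived singly in a cycle of 12 h light and 12 h dark. ALF animals had food at all hours. In TRF cages food was offered for 6 h, starting at Zeitgeber time (ZT) 15 and ending at ZT21. Lights came on at ZT0 and went off at ZT12. Feeding groups started when the mice were 6 to 9 months old, and tissue was taken at 10 to 13 months, from 1 hemibrain per animal. In NTG mice on ALF, 7, 1, 6 and 2 animals were killed at ZT0, ZT6, ZT12 and ZT18, and on TRF 6, 2, 6 and 2. Food had been gone from the TRF cages for 3 h at ZT0, 9 h at ZT6 and 15 h at ZT12, and it was present at ZT18. Some mice had earlier been kept in constant darkness and given a shifted light cycle, and which ones was not given for single samples. The series asks how restricted feeding acts on brain transcription in a model of Alzheimer disease, and the littermates show the feeding effect without the transgene.

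Mice eat mostly at night, and a fixed meal time sets the clocks of many organs, while the master clock in the hypothalamus follows light. Fasting lowers insulin and turns metabolism to fat and ketone bodies, glucocorticoid hormone rises ahead of an expected meal, and body temperature falls with a long fast. In hippocampal neurons, excitation turns on immediate early genes and the phosphatases and Sprouty proteins that limit ERK kinase signalling.

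Values are normalized counts per gene, and differences are log2(normalized count + 1) on TRF minus ALF with their standard error (SE), adjusted for time of sacrifice. Each was tested with limma over 14260 genes with Benjamini-Hochberg adjustment, and a gene is called when its adjusted p is under 0.05. Libraries held 27.9 to 43.4 M reads in NTG on ALF and 30.5 to 43.2 M in NTG on TRF, over the listed genes. Thy1, whose promoter drives the transgene, lay between 14727 and 29068 in NTG animals and at 101990 or more in TG animals. Markers of the dentate gyrus, CA1, and CA2 and CA3 were all detected in all NTG animals (7, 6 and 8 genes, lowest single value 49.8). Choroid plexus genes, of a tissue that lies against the hippocampus, were high in 8 of 16 ALF and 9 of 16 TRF animals. Over all 16 animals of each feeding, their member Ttr ran from 128 to 156500 on ALF and from 27.6 to 215400 on TRF. Xist exceeded 1000 in 8 of 16 animals on each feeding.

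Restricted feeding lowered 4 genes in NTG hippocampus and raised none past the threshold. The 4 were Banp, a nuclear protein that binds unmethylated CGCG elements in promoters, Apln, the peptide hormone apelin, P4ha1, the catalytic subunit of collagen prolyl 4-hydroxylase, and Ypel2, of a conserved family of small zinc-binding proteins. They are 0.0281% of the genes tested. At an unadjusted p under 0.05 stood 1065 genes (7.47%), 470 with higher (3.3%) and 595 with lower (4.17%) values on TRF. The median difference over all genes was 0.0046, with 52.3% of genes positive, and 6.93% of genes differed by more than 0.2 in either direction.

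These 4 genes lie on 4 chromosomes. In RefSeq coordinates on GRCm38.p6, with strands from GENCODE M21, Banp covers chromosome 8 from 121947972 to 122029260 on the plus strand. Apln covers chromosome X from 48025146 to 48034853 on the minus strand, Ypel2 chromosome 11 from 86936425 to 86993805 on the minus strand, and P4ha1 chromosome 10 from 59323197 to 59373304 on the plus strand. All are protein coding. Banp shares its strand with the annotated Gm20388 and Mir7237, and Gm27011 and Gm17709 overlap it on the other strand. Whether reads were counted by strand is not given in the sources used here, so reads of overlapping genes at Banp may not be told apart.

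Apln and P4ha1 are known targets of hypoxia-inducible factor (HIF), so the sequence before the start of 3 of the 4 genes is shown, since they fell together, with each ACGTG or GCGTG (the core of the HIF element, read on both strands) in capitals. Sequences are from RefSeq on GRCm38.p6, 5′ to 3′ on the strand of the gene, and they stop before the RefSeq start of the gene. Apln is at chrX:48034854-48035103 (minus strand), P4ha1 at chr10:59323046-59323196 (plus strand) and Ypel2 at chr11:86993806-86994012 (minus strand). Banp has no entry and is named only.
Apln: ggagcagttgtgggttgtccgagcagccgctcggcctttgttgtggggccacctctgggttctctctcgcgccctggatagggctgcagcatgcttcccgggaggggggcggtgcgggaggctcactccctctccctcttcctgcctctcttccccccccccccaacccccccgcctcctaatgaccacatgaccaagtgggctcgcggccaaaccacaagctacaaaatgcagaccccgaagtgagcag
P4ha1: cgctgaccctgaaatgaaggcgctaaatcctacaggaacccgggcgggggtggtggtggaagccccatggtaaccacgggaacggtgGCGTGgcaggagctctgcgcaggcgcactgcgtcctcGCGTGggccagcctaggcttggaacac
Ypel2: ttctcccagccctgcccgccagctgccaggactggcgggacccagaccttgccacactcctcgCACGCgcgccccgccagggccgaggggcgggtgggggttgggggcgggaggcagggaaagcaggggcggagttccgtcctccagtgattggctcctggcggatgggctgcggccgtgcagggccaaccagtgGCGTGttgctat
P4ha1 and Ypel2 each held 2 cores in these stretches, and Apln held none in 250 bases. At least 1 such core lay in the 250 bases before the start of 38.6% of 32851 RefSeq windows, and of 60.7% of the 11019 measured genes with a window. Measured genes with a core had a median difference of 0.0044, beside 0.0049 for all those with a window.

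Banp separated the feeding groups most clearly. On ALF at ZT0 its values ran from 1152 to 1366 (median 1307, n = 7), and on TRF from 597 to 1028 (median 903, n = 6). At ZT12 they ran from 961 to 1353 (median 1102, n = 6) on ALF and from 705 to 922 (median 916, n = 6) on TRF. Every TRF animal was below every ALF animal at both times.

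At ZT6, too, both TRF animals had less Banp than the 1 ALF animal (1360), at 868 and 783. Inside the feeding window, at ZT18, the groups overlapped, with 1175 and 1348 on TRF and 1285 and 1277 on ALF. Over all times the mean was 1226 ± 130 on ALF and 909 ± 173 on TRF (SD, n = 16 and 16). The difference was −0.43 ± 0.08 (adjusted p = 0.0221, limma), with 15 of 16 TRF animals under the ALF median.

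P4ha1, which hydroxylates prolines in collagen in the endoplasmic reticulum, had the same arrangement at the times without food. ALF animals at ZT0 held 2730 to 3261 (median 2875) and TRF animals 1686 to 2658 (median 2065). At ZT12 the ranges were 1869 to 2519 (median 2066) and 1548 to 1854 (median 1740). The groups did not overlap at either time.

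At ZT6 P4ha1 stood at 1778 and 1796 on TRF against 2496 on ALF. At ZT18 the order was the opposite, with 2821 and 2809 on TRF and 2647 and 2472 on ALF, 2 animals each and no test. At ZT18 the feedings also differed in choroid plexus genes, whose mean log2 level was 10.49 and 10.8 in the TRF animals and 6.4 and 5.96 in the ALF animals, and the part of this in the P4ha1 values was not tested. The overall difference was −0.33 ± 0.07 (adjusted p = 0.044, limma), from 2542 ± 406 on ALF to 2005 ± 414 on TRF (SD). Of 14260 genes, Banp and P4ha1 were the 2 (0.014%) with every TRF animal below every ALF animal at ZT0 and at ZT12, and 0 genes had every TRF animal above at both.

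Apln, the ligand of the apelin receptor, acts on vessels and fluid balance. At ZT0 it ranged from 864 to 1281 (median 1095) on ALF and from 575 to 1223 (median 884) on TRF, and at ZT12 from 633 to 949 (median 869) and from 518 to 785 (median 690). The groups overlapped at both times, though 13 of 16 TRF animals lay under the ALF median of all times.

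Apln fell by 0.38 on the log2 scale (SE 0.08, adjusted p = 0.0374, limma), from 989 ± 223 to 753 ± 194 (SD). At ZT18 it stood at 730 and 973 on TRF and at 1544 and 940 on ALF. Its difference was similar in size at both main times, −0.36 ± 0.13 at ZT0 and −0.33 ± 0.13 at ZT12. Its receptor was not analysed here.

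Ypel2 was lower in 16 of 16 TRF animals than the ALF median. It ranged from 1926 to 2608 (median 1996) on ALF and from 1282 to 1892 (median 1718) on TRF at ZT0, without overlap. At ZT12 the ranges, 1421 to 1906 (median 1734) and 1231 to 1788 (median 1504), overlapped. The difference was −0.29 ± 0.06 (adjusted p = 0.0374, limma), and at ZT18 the values were 1903 and 1819 on TRF and 2196 and 1916 on ALF.

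**Figure D1:**
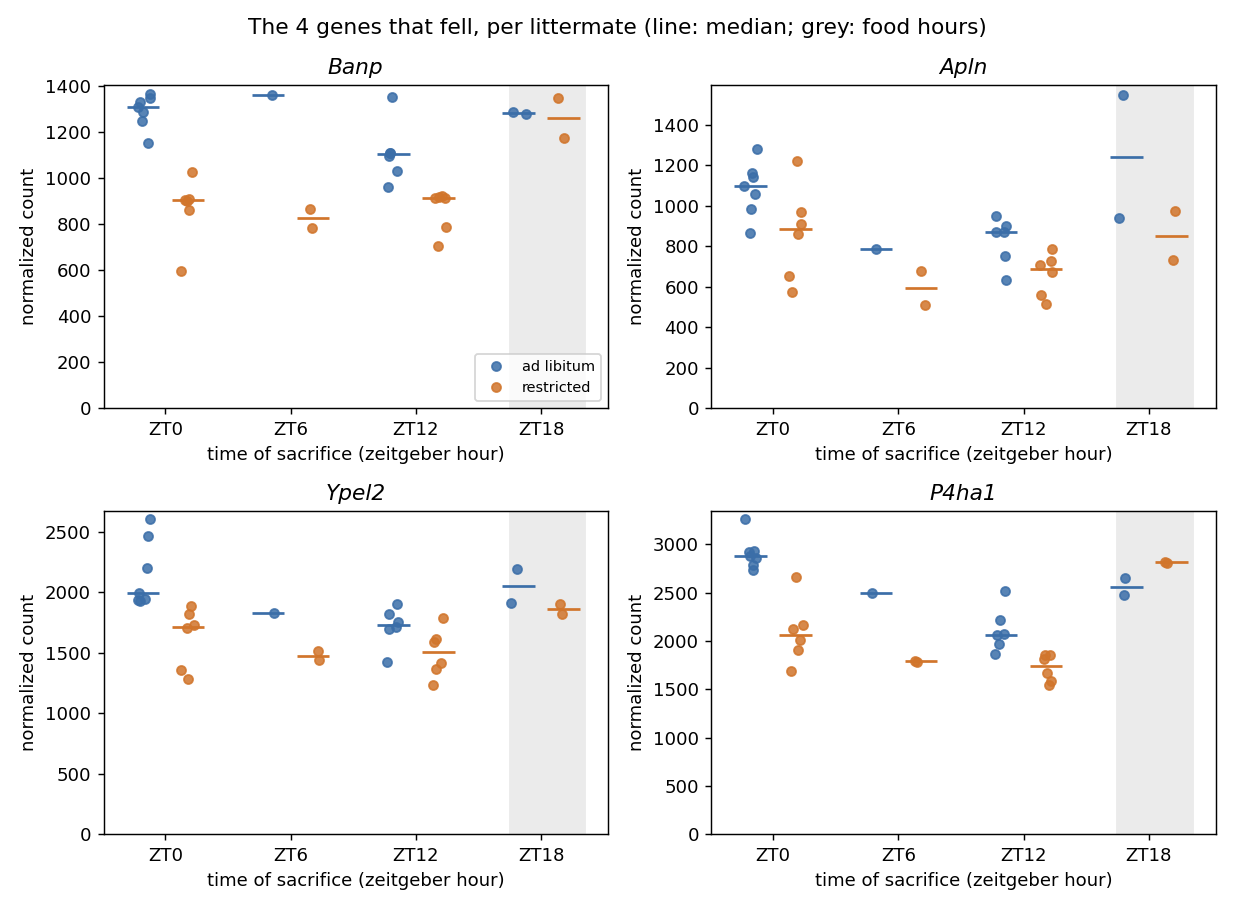
Normalized count of Banp, Apln, Ypel2 and P4ha1 in each of 32 littermates by time of sacrifice, ALF in blue and TRF in orange, with the median as a line and the food hours in grey. Banp and P4ha1 show no overlap between feedings at ZT0 and ZT12, and P4ha1 on TRF lies above ALF at ZT18.

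How far these calls hold depends on single animals. ALF animals WT_ALF_0_1 and WT_ALF_0_107, both of ZT0 and named as the labels do, had the lowest mean correlation with the other libraries of the series (0.951 and 0.939). Without both, 0 genes passed (limma, 891 at an unadjusted p under 0.05), while the 4 differences were −0.42 for Banp, −0.38 for Apln, −0.24 for Ypel2 and −0.31 for P4ha1, with adjusted p of 0.0794, 0.0835, 0.28 and 0.28. Leaving out 1 of the 32 animals at a time gave 0 to 8 genes, with 0 without WT_ALF_0_3, WT_ALF_12_135, WT_ALF_0_101 or WT_ALF_6_301 and 8 without WT_ALF_18_328. In those 32 fits Banp was called 28 times, Apln 16, Ypel2 14 and P4ha1 7.

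No relative of the called genes passed the test. The list of prolyl 4-hydroxylase subunits held 5 measured genes and P4ha1 alone was called. P4ha3, a less abundant catalytic subunit, stood at −0.36 ± 0.13 (adjusted p = 0.417), with 116.5 ± 27.4 on ALF and 89.9 ± 17.2 on TRF (SD). P4ha2 stood at −0.11 ± 0.08, and P4hb, the shared protein disulfide isomerase subunit, at 0.02 ± 0.05. Of 8 lysyl hydroxylases and collagen prolyl 3-hydroxylase genes none was called, 3 were positive and Plod2 stood at 0.09 ± 0.09.

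The other 4 genes of the Ypel family all had positive values, from 0.05 ± 0.08 for Ypel4 to 0.11 ± 0.06 for Ypel1. Without WT_ALF_0_1 and WT_ALF_0_107, 2 of the 5 Ypel genes were positive, and the family median went from 0.072 to −0.060. Of the 9 genes of the BEN domain and matrix attachment list, to which Banp belongs, none but Banp was called. Bend5 stood at 0.23 ± 0.07 (adjusted p = 0.268) and Bend4 at −0.24 ± 0.09 (0.46, limma).

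Among 32 measured HIF targets, 2 were called, Apln and P4ha1, both lower, beside 0.0281% of all genes. The list was written with earlier results of these data known, so this count is no test of HIF targets. The list as a whole had values of both signs, 15 of 32 positive, and its median was −0.0061, near the 0.0046 of all genes. Leaving out WT_ALF_0_1 and WT_ALF_0_107 gave 9 of 32 positive and a median of −0.033 (at ZT0 8 positive, median −0.046). Pfkfb3, which drives glycolysis, stood at −0.15 ± 0.06 and Ak4, a mitochondrial adenylate kinase, at −0.13 ± 0.06 (adjusted p = 0.546 and 0.568, limma). Vegfa, the vessel growth factor, was at −0.14 ± 0.10, and Slc2a1, the glucose transporter of brain vessels, at 0.07 ± 0.09. These 2 were named after their values were seen, being among the best known targets.

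Apln is made in vessel cells, and in bulk tissue fewer cells of a type and less RNA per cell cannot be told apart. Of 19 measured endothelial genes 1 was called, Apln itself, 9 were positive, and the median was −0.0024. At ZT0 8 of the 19 were positive (median −0.037), and at ZT12 16 (median 0.113). Cd93 stood at −0.24 ± 0.12 and Cdh5, the vascular cadherin, at −0.10 ± 0.12. The summed level of the list ran from 9036 to 22480 (median 17010) on ALF and from 13910 to 19420 (median 16520) on TRF.

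Past the 4 called genes, the next 8 of smallest p with lower values had adjusted p from 0.102 to 0.156 (limma). Zmym1, a zinc finger protein, showed the largest size at −0.48 ± 0.11. At ZT12 its ranges did not overlap, 1299 to 1728 (median 1389) on ALF and 896 to 1134 (median 980) on TRF. At ZT18 both TRF animals (2076 and 2022) were above both ALF animals (1891 and 1663).

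Xbp1, the transcription factor of the unfolded protein response, stood at −0.21 ± 0.05 (adjusted p = 0.156). At ZT0 its ranges did not overlap, with 3198 to 3810 (median 3366) on ALF and 2360 to 3057 (median 2478) on TRF. At ZT18 it was again higher on TRF, 3453 and 3604 against 3308 and 3027. So Xbp1, Zmym1 and P4ha1 each had both TRF animals above both ALF animals at ZT18 and most or all TRF animals below ALF at ZT0, a pattern noted after the values were seen and carried by 2 animals on each feeding. These are the animals of which both on TRF and neither on ALF had high choroid plexus genes, so at ZT18 feeding and that tissue cannot be told apart.

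Cbfa2t3, a transcriptional corepressor, stood at −0.38 ± 0.09, Mfap3 at −0.25 ± 0.06, and Usp31, a deubiquitinase, at −0.26 ± 0.06. Cbfa2t3 lies 596 kb from Banp, and the annotated Gm20388 overlaps both genes. Ipmk, the inositol polyphosphate multikinase, was at −0.16 ± 0.04, 2610021A01Rik at −0.27 ± 0.07 and Ubfd1 at −0.18 ± 0.04. WT_ALF_0_1 and WT_ALF_0_107 held the highest ALF values of Usp31 (8432 and 9226), 2610021A01Rik (1332 and 1272) and Cbfa2t3 (2210 and 1709). Over 24 settings of the model Usp31 ran from −0.31 to −0.178, 2610021A01Rik from −0.348 to −0.173 and Cbfa2t3 from −0.476 to −0.312. Over the ranges at ZT0, TRF lay wholly below ALF in 24 genes (0.168%), among them Ubfd1, Xbp1, Ypel2, Banp and P4ha1.

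On the higher side no gene passed (adjusted p of the first 12 from 0.102 to 0.203, limma). Cirbp and Rbm3, RNA-binding proteins made at lowered temperature, were among the 12. Cirbp at ZT0 ran from 1003 to 1589 (median 1378) on ALF and from 1599 to 2632 (median 1810) on TRF, with no overlap. At ZT12 it ran from 1942 to 2921 (median 2522) and from 2560 to 3492 (median 3237), and 5 of 6 TRF animals were above the highest ALF animal.

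Cirbp stood at 0.37 ± 0.09 (adjusted p = 0.118) over all times. At ZT18 TRF did not exceed ALF, with 1600 and 1870 against 1687 and 2122. Rbm3 stood at 0.31 ± 0.08 (0.175, limma), with medians of 1359 on ALF and 1898 on TRF at ZT0, and of 2891 and 3315 at ZT12, where all 6 TRF animals were above the ALF median. The 4 cold-inducible genes measured were all positive, none called, with a median of 0.245, and 0.189 without WT_ALF_0_1 and WT_ALF_0_107. Cirbp and Rbm3, chosen above by their p, are among these 4, and the list was written with earlier results known. The median is therefore no separate evidence. Of the other members, Srsf5 had 10 of 16 TRF animals above the ALF median and Sf3b1 11 of 16. In TG mice 3 of the 4 were positive.

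Hmgb2, a chromatin protein of dividing cells, had the largest size among the 12 at 0.57 ± 0.13 (adjusted p = 0.102). At ZT12 it ran from 101.9 to 175 (median 111) on ALF and from 163 to 218 (median 206) on TRF, and 5 of 6 TRF animals exceeded the highest ALF animal. At ZT18 the values were 115.4 and 144.5 on TRF and 115.3 and 101.2 on ALF. Sult1a1, a sulfotransferase that glucocorticoids induce, stood at 0.52 ± 0.14 (0.19, limma), with 324 ± 79.6 on ALF and 473 ± 182 on TRF (SD), and its wide TRF range of 253 to 876 covered most ALF values.

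Amn, an anchoring subunit of the vitamin B12 and intrinsic factor receptor, stood at 0.45 ± 0.11, the noncoding Gm9776 at 0.45 ± 0.11 and Rbm11, a splicing regulator, at 0.35 ± 0.09. Fbn1, the microfibril protein fibrillin, was at 0.33 ± 0.09, and Mccc2, of leucine breakdown, at 0.18 ± 0.05. Zfp784 (0.31 ± 0.08), Trmt9b (0.25 ± 0.07) and the reductase Cyb5r3 (0.13 ± 0.04) complete the 12. WT_ALF_0_1 and WT_ALF_0_107 held the lowest ALF values of Amn (112.1 and 104.5) and Hmgb2 (98.06 and 87.09). They held the highest of Fbn1 (698.4 and 710.4). Over the settings run Amn ran from 0.333 to 0.533, Hmgb2 from 0.432 to 0.664, Fbn1 from 0.26 to 0.411 and Zfp784 from 0.168 to 0.399.

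**Figure D2:**
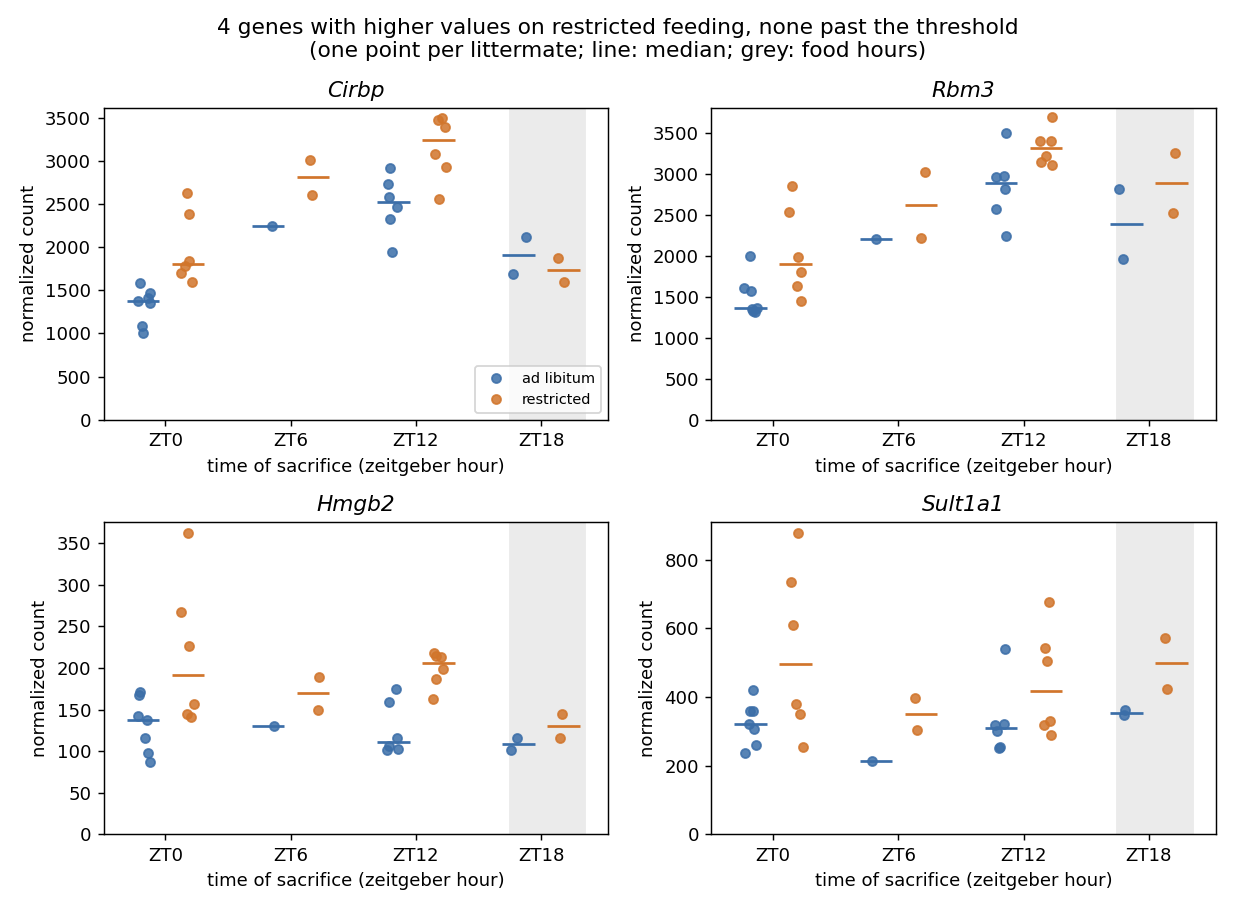
Normalized count of Cirbp, Rbm3, Hmgb2 and Sult1a1 in each littermate by time of sacrifice, ALF in blue and TRF in orange, with the median as a line and the food hours in grey. For Cirbp all 6 TRF animals lie above all 7 ALF animals at ZT0, and at ZT18 they do not.

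The transgenic animals gave the same measure in mice of another genotype, with controls of their own. Of the 12 lower genes 10 had a negative value in TG mice, and of the 12 higher genes 11 a positive one, beside 64.4% of all genes with the same sign in both genotypes. Both genotypes had a like order by exon length. Median differences for genes up to 1000 bases and over 6000 were 0.14 and −0.047 in TG, and 0.07 and −0.017 in NTG. TG_ALF_0_16 and TG_ALF_0_5 had low short relative to long transcripts (−2.87 and −2.90 log2 units), as did the ALF animals described below. The part of this in the shared signs was not tested. In TG mice 77 genes were called (0.54% of genes tested, 0.196% as higher), among them 3 of the 12 higher genes, Sult1a1 (0.63 ± 0.13, adjusted p = 0.0102), Amn (0.51 ± 0.11, 0.0132) and Rbm3 (0.34 ± 0.07, 0.0158, limma), which rose there. None of the 12 lower genes was called in TG mice.

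Banp in TG mice differed by −0.12 ± 0.08, with ranges of 699 to 1511 on ALF (median 986) and 574 to 1512 on TRF (median 929). Over all times the ranges overlapped in both genotypes, in NTG mice with 961 to 1366 on ALF and 597 to 1348 on TRF. P4ha1 differed by −0.04 ± 0.07, Apln by −0.12 ± 0.07 and Ypel2 by −0.18 ± 0.06 (adjusted p from 0.0914 to 0.754, limma).

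Whether the feeding effect differed between genotypes was tested as an interaction, and 0 genes passed (limma, 745 or 5.22% at an unadjusted p under 0.05, smallest adjusted p 0.929). For P4ha1 the interaction had an unadjusted p of 0.00369, for Banp 0.00647, for Apln 0.0173 and for Ypel2 0.19. With an adjusted p of 0.929 or more these calls are not shown to be particular to NTG mice, nor are the genotypes shown to respond alike. The 5 genes of smallest interaction p were Spata6, Cd274, Sbk3, Rdh13 and Pbx2, of which Spata6 stood at 0.38 ± 0.12 in NTG and −0.30 ± 0.11 in TG.

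**Figure D3:**
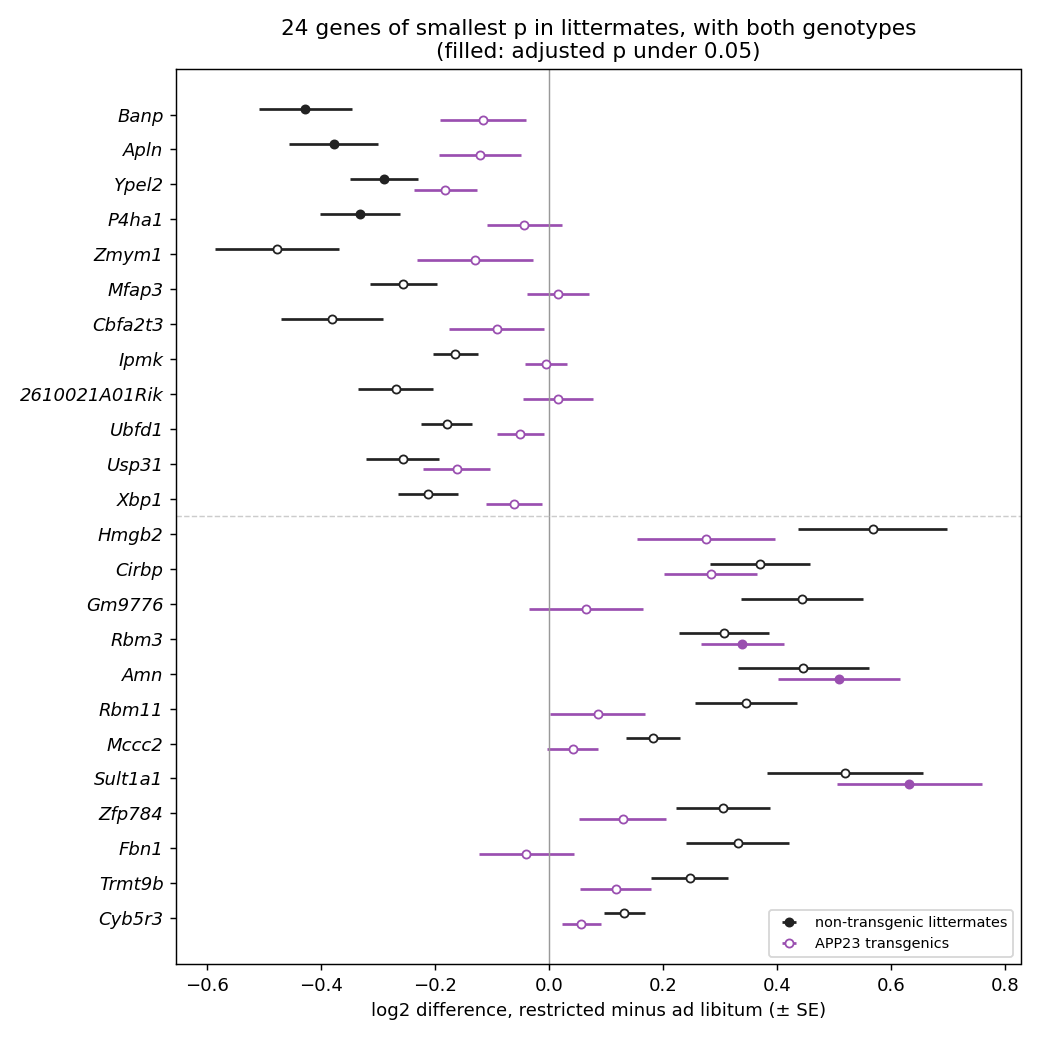
Log2 difference between TRF and ALF with its SE for the 12 genes of smallest p in each direction in NTG mice (black), with TG mice in purple, and filled points for an adjusted p under 0.05. All 4 called NTG genes are lower, their TG values lie nearer 0, and Rbm3, Amn and Sult1a1 are called in TG alone.

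At lights on, 3 h after the food was removed, 0 genes passed (0%, limma), with 1561 at an unadjusted p under 0.05 (10.9%) and a smallest adjusted p of 0.0509. That value was shared by 9 genes, among them Banp (−0.59), P4ha1 (−0.49), Ypel2 (−0.41), Xbp1 (−0.38), 2610021A01Rik (−0.47), Gm9776 (0.72) and Agbl3 (0.61). Agbl3, a tubulin carboxypeptidase, ran from 134.4 to 293 (median 230) on ALF and from 298 to 363 (median 338) on TRF, one of 11 genes (0.0771%) with TRF wholly above ALF at ZT0. Its lowest ALF values, 162.1 and 134.4, were those of WT_ALF_0_1 and WT_ALF_0_107. Leaving out 1 animal gave 0 to 50 genes at ZT0, the highest without WT_ALF_0_136, and 14 passed with a covariate for the balance of short and long genes described below.

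At lights off, after 15 h without food, 0 genes passed (0%, limma), with 272 at an unadjusted p under 0.05 (1.91%) and a smallest adjusted p of 1. The 5 of smallest p were Cln6, a protein of the endoplasmic reticulum needed for lysosomes (0.36), Haus8 of the mitotic spindle (−0.46), Sp7 (1.27), Fam43a (0.43) and Gimap6 (0.84). Txnip, which binds thioredoxin and slows glucose uptake, had TRF wholly above ALF at ZT12, with 488 to 795 (median 679) on ALF and 805 to 1260 (median 1021) on TRF. At ZT12 that held for 11 genes (0.0771%), and TRF lay wholly below ALF in 15 (0.105%).

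The difference between the feeding effects at ZT12 and ZT0 was itself tested, and 0 genes passed (limma, 405 or 2.84% at an unadjusted p under 0.05). Smallest in p were 4930473A02Rik, Insc, Pdk4, Arid5a and Gm6485. Pdk4, the kinase that holds pyruvate back from the mitochondria in fasting, stood at −0.31 at ZT0 and 0.32 at ZT12 (unadjusted p of the difference 0.00124, adjusted 0.995). Its ranges overlapped at both times, with 500 to 798 on ALF and 395 to 700 on TRF at ZT0, and 308.8 to 482 and 427 to 703 at ZT12.

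No gene of the core clock list was called among 20 measured, 8 were positive, and the median was −0.011. Bmal1, the activator, stood at −0.01 ± 0.06, with medians of 1392 on ALF and 1368 on TRF at ZT0 and of 1007 and 959 at ZT12. Of its partners Clock was at −0.04 ± 0.09 and Npas2 at 0.11 ± 0.09. Of the repressors, Per1 (0.01 ± 0.09), Per3 (−0.01 ± 0.07) and Cry2 (0.01 ± 0.06) were near 0. Cry1 (0.10 ± 0.06) and Ciart (0.13 ± 0.10) were positive. These differences average over the times of sacrifice, so opposite differences at ZT0 and ZT12 can cancel in them.

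Per2, the period gene that responds to glucocorticoids and temperature, stood at −0.20 ± 0.10 (adjusted p = 0.668). At ZT0 it ran from 983 to 1578 (median 1212) on ALF and from 553 to 1332 (median 922) on TRF, and at ZT12 the medians were 1565 and 1536. Nfil3 (−0.21 ± 0.10), Bhlhe40 (−0.14 ± 0.07) and Nr1d2, the nuclear receptor REV-ERB beta (−0.10 ± 0.05), were the others under an unadjusted p of 0.05, all lower. Nr1d1 (0.07 ± 0.05), Dbp (−0.05 ± 0.09), Tef (−0.01 ± 0.05), Hlf (−0.03 ± 0.07), Bhlhe41 (−0.09 ± 0.08) and the ROR receptors Rora (0.06 ± 0.16) and Rorb (−0.21 ± 0.12) were not. The sign of the clock median changed in 6 of 24 settings tried, and without WT_ALF_0_1 and WT_ALF_0_107 it was 0.019. At ZT0 the clock median was −0.069 with 7 of 20 positive, and without both animals 0.00011 with 10 positive. At ZT12 it was 0.059 with 14 of 20 positive. No clock gene passed the test of the difference between ZT12 and ZT0, and a shift in the daily course was not tested.

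Immediate early genes had mostly negative values, further from 0 at lights on. None of 30 was called, 7 were positive and the median was −0.11, and at ZT0 the median was −0.30 with 13 lower and 2 higher at an unadjusted p under 0.05 (5.8% and 5.15% of all genes). At ZT12 the median was 0.026 with 0 under that p in either direction (limma). In TG mice the median over all times was 0.088, beside the −0.11 of NTG mice. Without WT_ALF_0_1 and WT_ALF_0_107 the ZT0 median was −0.38.

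Klf10, a zinc finger repressor, had the smallest p of the list (−0.30 ± 0.09, adjusted p = 0.206). At ZT0 it ran from 1063 to 1452 (median 1162) on ALF and from 468 to 1146 (median 950) on TRF, and 5 of 6 TRF animals were under the lowest ALF animal. Nr4a3 (−0.22 ± 0.09), Inhba, a subunit of activin (−0.45 ± 0.18), and Fosl2 (−0.19 ± 0.09) followed. Arc and Fos, named after their values were seen, stood at −1.08 and −0.93 at ZT0 and at −0.03 and 0.44 at ZT12 (adjusted p of 0.252 and 0.422 at ZT0, limma).

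Of the feedback genes of ERK signalling all 15 measured had a negative value, none was called, and the median was −0.088. Of these 5 were under an unadjusted p of 0.05 (4.17% of all genes were lower at that p), namely the Sprouty genes Spry4 (−0.29 ± 0.10) and Spry2 (−0.18 ± 0.08), the phosphatase Dusp6 (−0.24 ± 0.09), Spred1 (−0.11 ± 0.05) and Spred2 (−0.10 ± 0.05). Spry4 at ZT0 ran from 544 to 871 (median 647) on ALF and from 335 to 677 (median 380) on TRF, with 5 of 6 TRF animals under all ALF animals, and at ZT12 the medians were 436 and 437. Without WT_ALF_0_1 and WT_ALF_0_107, 1 of 15 was positive with a median of −0.070. In TG mice 8 of 15 were positive with a median of 0.047. Genes of one list are not independent, and no test of the list was made.

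Chaperone genes had mostly negative values, and none was called. Of 24 cytosolic heat shock genes 3 were positive, none called, with a median of −0.069. Of 21 genes in the endoplasmic reticulum chaperone list 2 were positive, none called, with a median of −0.068. That list also holds the transcription factors Xbp1 and Ddit3, and Xbp1, already chosen above by its p, had the smallest p in it. Hsph1, a nucleotide exchange factor of HSP70, stood at −0.15 ± 0.05, Chordc1 at −0.20 ± 0.07, the co-chaperone Dnajb1 at −0.15 ± 0.05 and Dnaja4 at −0.10 ± 0.04. Hsph1 at ZT12 ran from 9624 to 10370 (median 10050) on ALF and from 7988 to 10010 (median 8891) on TRF, and 5 of 6 TRF animals lay under the lowest ALF animal. In the other list the isomerase Pdia4 stood at −0.21 ± 0.10 and Creld2 at −0.18 ± 0.10. Both medians kept their sign in 24 of 24 settings of the NTG comparison. In TG mice 13 of 24 cytosolic heat shock genes were positive with a median of 0.012. Of the 21 endoplasmic reticulum genes 4 were positive there, with a median of −0.061.

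Genes that glucocorticoids induce had mostly positive values, 18 of 21, with a median of 0.13 and none called. Fkbp5, which binds and restrains the glucocorticoid receptor, stood at 0.21 ± 0.07 (adjusted p = 0.388), with 1690 ± 300.3 on ALF and 1994 ± 555 on TRF (SD), and 12 of 16 TRF animals above the ALF median. Txnip was at 0.40 ± 0.13 (0.268) and Plin4, a lipid droplet coat protein, at 0.54 ± 0.27 (0.67, limma), with 1 TRF animal at 1482 at ZT0, where the TRF median was 208. Without WT_ALF_0_1 and WT_ALF_0_107 the list median was 0.075, and at ZT0 it went from 0.19 to 0.025. In TG mice all 21 were positive with a median of 0.285.

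No gene of fasting metabolism was called. Of 25 targets of PPAR-alpha 16 were positive and none called, with a median of 0.040, including Angptl4, an inhibitor of lipoprotein lipase (0.45 ± 0.22), and Acot1 (0.19 ± 0.09). Of 9 genes of ketone use 6 were positive, among them Acat1 (0.09 ± 0.04). Cholesterol synthesis had 15 of 25 positive and a median of 0.0055, and the smallest p was that of Lbr (−0.16 ± 0.06). Of 14 genes of fatty acid synthesis 3 were positive, with Elovl6 at −0.14 ± 0.06 and Elovl5 at −0.13 ± 0.05. When WT_ALF_0_1 and WT_ALF_0_107 were left out, 6 of the 14 were positive, and the cholesterol median was −0.0074 with 12 of 25 positive.

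Insulin and nutrient signalling lists had no called member either. Trib2 stood at −0.17 ± 0.05, Foxo4 at −0.19 ± 0.06 and Irs1, the insulin receptor substrate, at −0.17 ± 0.09, in a list with 8 of 26 positive. Prkab1, a subunit of AMP kinase, stood at 0.23 ± 0.07. The median of the insulin list was −0.044, and 0.017 without WT_ALF_0_1 and WT_ALF_0_107.

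Values of respiratory chain genes depended on single libraries. Of 32 measured 30 were positive with a median of 0.080, and without WT_ALF_0_1 and WT_ALF_0_107 12 were positive with a median of −0.039. These 2 animals had the lowest level of genes with short transcripts (exon length up to 1000 bases) relative to genes with long ones (from 6000), at −3.22 and −3.31 log2 units, beside a median of −2.11 in ALF and −2.03 in TRF animals. At ZT0 the median difference was 0.18 for 285 short genes and −0.056 for 4568 genes over 6000 bases, and without both animals −0.09 and 0.027. Across the 32 animals the level of the respiratory chain genes followed that balance with r = 0.988, as a description of libraries that share it. Respiratory chain genes of those lengths were not taken out of the balance, and both animals are among the 32, so r is no separate evidence. What part that balance has in other differences at ZT0 was not tested beyond the fits given.

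**Figure D4:**
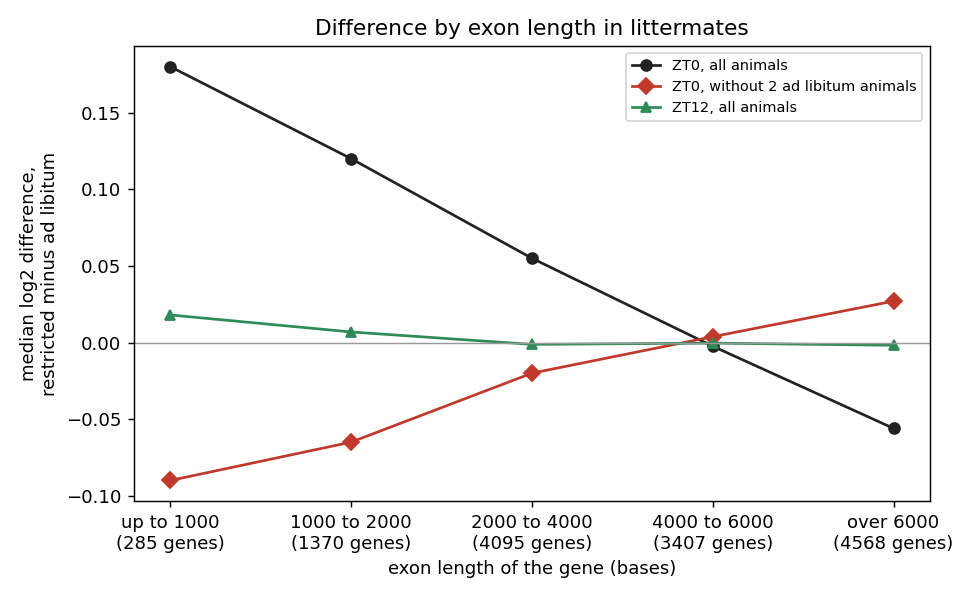
Median log2 difference between TRF and ALF in NTG mice by exon length of the gene in bases, at ZT0 (black), at ZT0 without WT_ALF_0_1 and WT_ALF_0_107 (red), and at ZT12 (green). At ZT0 the medians run from 0.18 for the shortest class to −0.056 for the longest, and the order is reversed without both animals.

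**Figure D5:**
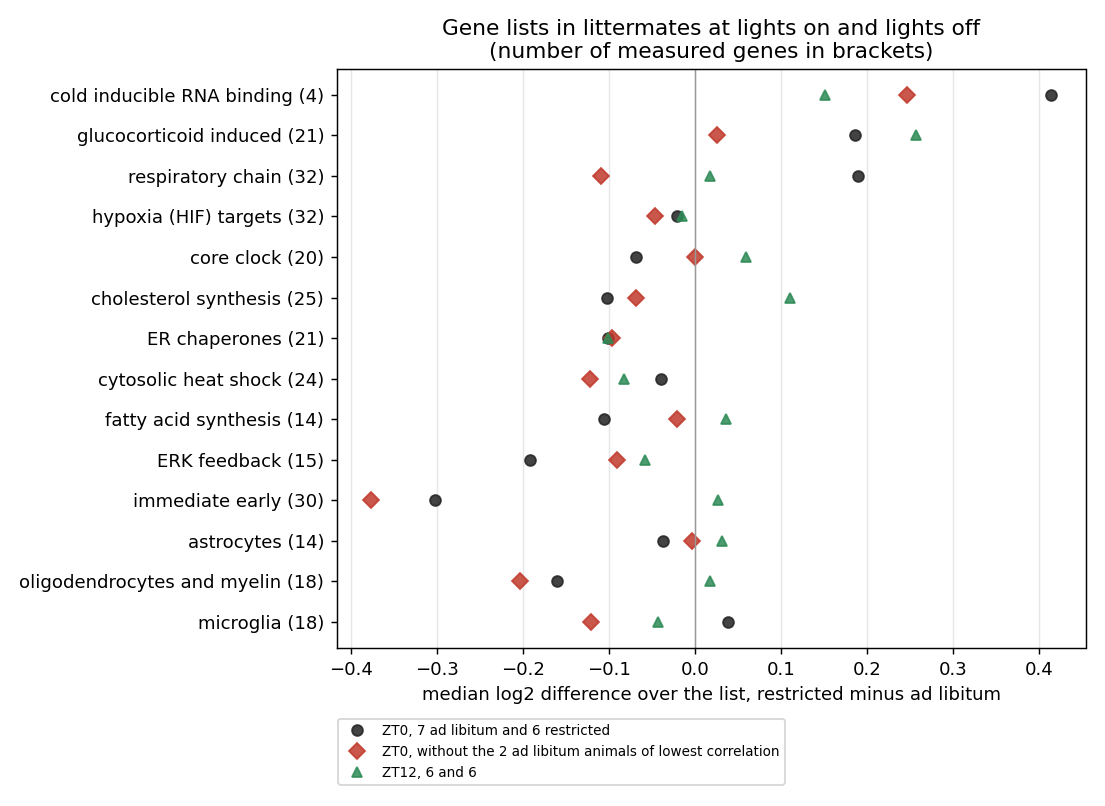
Median log2 difference over 14 gene lists in NTG mice at ZT0 (circles), at ZT0 without WT_ALF_0_1 and WT_ALF_0_107 (diamonds) and at ZT12 (triangles). Immediate early genes are low at ZT0 with and without both animals, while the respiratory chain median goes from 0.19 to −0.11.

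Cell type markers gave no call other than Apln. The choroid plexus list had the median furthest from 0, at 0.565 with 18 of 19 positive and none called, while at ZT0 and ZT12 it was −0.345 and −0.336, and in TG mice −1.41. Its summed level ran from 7315 to 257100 (median 63530) on ALF and from 7211 to 335400 (median 161400) on TRF. With the choroid plexus level as a covariate 6 genes were called, the same 4 with Zmym1, and Cirbp as the 1 higher gene. Among 18 genes of oligodendrocytes and myelin, 3 had positive values (median −0.065), and of 12 genes of their precursors 3 were positive. Ugt8a, which makes the galactolipids of myelin, stood at −0.32 ± 0.10 (adjusted p = 0.268), Ermn at −0.20 ± 0.07 and Gpr17, a receptor of maturing precursors, at −0.26 ± 0.08 (0.24, limma). The summed myelin level ran from 195100 to 477300 on ALF and from 199700 to 359000 on TRF, so that these genes vary widely within each group. With the myelin level as a covariate 1 gene was called.

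Among astrocyte genes the water channel Aqp4 stood at −0.30 ± 0.09 (adjusted p = 0.206) and Gfap, the intermediate filament protein, at −0.17 ± 0.07 (0.475, limma), in a list with 5 of 14 positive. Aqp4 at ZT0 ran from 5542 to 9768 (median 7184) on ALF and from 4268 to 6272 (median 5440) on TRF. All 6 TRF animals were under the ALF median, and the groups overlapped. Microglial genes had 7 of 18 positive, with a median of −0.0245 and Olfml3 at −0.18 ± 0.08. Leaving out WT_ALF_0_1 and WT_ALF_0_107 gave 4 of 18 positive and a median of −0.13.

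Neuronal genes had a median of 0.0145, with 9 of 14 positive (0.0041 and 7 without WT_ALF_0_1 and WT_ALF_0_107), and interneuron genes one of 0.048. Of 7 dentate gyrus genes 2 were positive, with Trpc6 at −0.25 ± 0.08 and Prox1, the granule cell transcription factor, at −0.21 ± 0.10 (adjusted p = 0.273 and 0.608, limma), while 5 of 6 CA1 genes were positive. Markers of thalamus, habenula and striatum had 3 of 10 positive and summed to 4025 to 9705 on ALF and 4524 to 8355 on TRF. How the dissections differed in their share of subfields was not tested.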

How the data were processed

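Hippocampal poly-A RNA of 69 mice was sequenced as paired reads of 150 bases. Per the submitters' processing notes the authors used HISAT2, featureCounts, DESeq2 and GRCm38 (versions not given in the sources used here). The deposited signal per gene is a count normalized by the authors with DESeq2, in 1 table of 14260 genes and 70 libraries, and within each library the values were whole multiples of 1 step (tolerance 0.01), from which reads per library were derived. The count model was not run on these values. Libraries WT_TRF_12_232 and WT_TRF_12_232R were averaged as 1 animal, since the labels give both the number 232. What the R stands for is not given, and their correlation (0.992) was no higher than the highest between different animals (0.993).

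Values were taken as log2(normalized count + 1), and all 14260 genes passed the filter on a mean of at least 10. Using limma 3.58.1 (R 4.3.3) with trended and robust variances, 69 animals were fitted with a mean per genotype and feeding and a term for each time of sacrifice, so that both genotypes share 1 estimate of spread. A second model with a mean per group and time gave the effects at ZT0 and ZT12 and their difference. P-values were adjusted by Benjamini-Hochberg over 14260 genes. The model was tested on simulated data with independent noise for each gene. Such data hold no shift shared by the genes of a library, so they do not check the calls against such shifts. Animals are the replicates; sex is not given per sample. Depth was 27.9 to 43.4 M reads per NTG library, and the number of animals limits precision.

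The members and gene lists were chosen with earlier results of these data known. Named genes were those past the threshold, the 12 of smallest p in each direction, the 5 of smallest p at ZT0, at ZT12, for their difference and for the interaction, up to 4 of smallest p per list, and the clock list in full, except for items that are not reported here. Other genes are named as chosen after their values were seen. Alternatives covered time terms, the genotypes fitted alone, pseudocount, filter, scaling, weights, covariates and leaving out each animal. Promoter sequences are RefSeq's on GRCm38.p6, of which 18 of 24 genes looked up had one. Figures were drawn with matplotlib 3.10.9 under Python 3.11.15.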

Additional observations from a re-analysis of the deposited data

Results flagged for a closer look

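In 5 of 96 groups of 4 to 10 animals, 1 animal lay further from the rest than Dixon's test allows at 95%, and chance gives about 1 in 20 such groups. P4ha1 stood at 3261 in WT_ALF_0_1, where the next animal on ALF at ZT0 stood at 2925. Ubfd1 was at 1702 in WT_TRF_0_202, and the nearest TRF animal at ZT0 was at 2107. Xbp1 reached 3810 in WT_ALF_0_3 against 3433 in the next ALF animal at ZT0. Rbm3 reached 2000 in WT_ALF_0_120, where the next was at 1606. Sult1a1 stood at 540.4 in WT_ALF_12_135 at ZT12, and the next ALF animal was at 322.2.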

How the results depend on the processing

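The 4 differences (Banp, Apln, Ypel2 and P4ha1) stayed negative in all 24 settings run, while the number of called genes moved. Of 4 with the planned model, 2 passed with NTG animals alone, with quantile normalization and with the animals' number series as a covariate, and 1 passed without trended and robust variances or when the myelin level was added. None (0) passed with no term for time, with the 4 times weighted equally, with libraries scaled to equal totals, with voom weights, and without the 5 libraries of lowest correlation (limma, 592 to 1027 genes at an unadjusted p under 0.05). With array weights 10 passed, 2 of them higher. With ZT0 and ZT12 animals alone 3 passed, Banp and Cbfa2t3 lower and Cln6 higher. With separate time terms per genotype 5 passed, the same 4 and Hmgb2 as higher, and with the choroid plexus level as a covariate 6, Cirbp as higher. Of alternatives chosen after seeing the data, 0 passed without WT_ALF_0_1 and WT_ALF_0_107, and 7 with the balance of short and long genes as a covariate. Leaving out each animal gave 0 to 8 genes, the latter without WT_ALF_18_328. At ZT0, where 0 passed, 3 passed with NTG animals alone, 4 with WT_TRF_12_232 without WT_TRF_12_232R, 5 with the choroid plexus level as a covariate and 14 with the balance of short and long genes. Leaving out each animal there gave 0 to 50, with 50 without WT_ALF_0_136, 33 without WT_ALF_0_101 and 29 without WT_ALF_0_134 or WT_TRF_0_116. The ZT12 effect, the difference between times and the interaction gave 0 in each setting run. The cause was not tested. No paired analysis was possible because no animal number is shared between the groups compared.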
